A study of Mus musculus with 45 samples.

Results

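The genes described here are the classical axon guidance ligands and receptors of the mouse: semaphorins with their plexin and neuropilin receptors, ephrins with the Eph receptors, Slits with the Robo receptors, and netrins with Dcc and the Unc5 receptors. They were taken by gene symbol, which gave 72 of the 53491 genes listed in the tables. Of these, 35 encode ligands (20 semaphorins, 8 ephrins, 3 Slits and 4 netrins), and 34 encode receptors (9 plexins, 2 neuropilins, 14 Eph receptors, 4 Robo receptors and 5 of the Unc5 and Dcc group). The remaining 3 are antisense RNAs of the plexin A4 locus, Plxna4os1, Plxna4os2 and Plxna4os3, whose symbols match that of their host.

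Guidance ligands are secreted or displayed on cell surfaces, and their receptors on the growth cone turn them into attraction or repulsion of the growing axon. Many act locally, since ephrins and several semaphorins stay bound to the membrane, whereas Slits, netrins and class 3 semaphorins diffuse. In the developing cortex the same families also steer migrating neurons, shape the radial glial scaffold and pattern blood vessels.

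Primary cells of wild-type (WT) cortex were cultured at an early stage of neurogenesis (E11.5), a middle one (E14.5) and a late one (E16.5). All groups received 100 uM 4-thiouridine (4sU), a uridine analogue that is read as C in place of T after alkylation, for 20 h, followed by a chase with 5 mM uridine, and RNA was taken at 0, 2, 4, 8 and 12 h (SLAM-seq). There were 3 replicates per stage, named A, B and C. Cortices of 7 embryos went into every E11.5 replicate and those of 2 embryos into every later one, and the pooled cells were divided over 5 wells, 1 for each chase time. This gave 45 libraries of 15.9 to 43.9 M reads. The cells were mixed and kept in medium that permits proliferation, so levels describe dissociated cultures, not tissue.

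Markers of the cell types in the cultures shifted with stage. Summed over 8 progenitor markers, levels at 0 h were 9671 to 10201 reads per 1000000 (CPM) at E11.5, 3504 to 4070 at E14.5, then 1343 to 1469 at E16.5. The sum of 8 neuronal markers ran the other way, from 2893 to 3450 at E11.5, through 5714 to 6369, to 8131 to 8574 at E16.5. Single neuronal markers differed, as the means of Neurod6 (858 to 742 CPM) and Bcl11b (256 to 227) fell from E14.5 to E16.5. The cortical label was borne out by Emx1, Emx2, Pax6 and Neurod6, all detected in every 0 h library. At E11.5 the libraries also held more RNA of 8 meningeal and mural genes (472 to 709 CPM, against 22.4 to 24.8 at E14.5, then 24.1 to 43.2 at E16.5) and of 7 erythroid genes (1527 to 3309 CPM, against 87.2 to 145 and 87.4 to 208). Markers of interneurons, 7 genes summed, went from 39.5 to 45.2 CPM at E11.5 over 95.2 to 123 at E14.5 to 428 to 465 at E16.5. Lhx6 and Sst were under 0.1 CPM at E11.5. From E11.5 to E14.5 the means of Gad1, Gad2, Lhx6 and Sst rose, while those of Dlx1 (7.95 to 7.25 CPM), Dlx2 (27.9 to 8.10) and Dlx5 (5.01 to 3.47) fell. Endothelial markers, 8 genes summed, were low throughout, at 4.88 to 6.38 CPM at E11.5, 1.19 to 3.56 at E14.5 and 3.25 to 4.81 at E16.5. The E11.5 sums thus lay above all later ones, though the mean of Tek rose from 0.0547 CPM at E11.5 to 0.135 at E14.5. The part of these shifts in the results below was not tested, and in such mixed cultures fewer cells of a type and less RNA per cell cannot be told apart.

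The first question was which guidance genes the cells used at each stage, before the chase. Summed over the 34 receptors, the level at 0 h was 2474 ± 241 CPM (SD, n = 3) at E11.5, 3980 ± 69.1 at E14.5, then 4433 ± 106 at E16.5, and the 35 ligands summed to 1796 ± 24.9, 1585 ± 101 and 2000 ± 25.9 CPM. The receptor sums of E11.5 lay below those of the later stages in every library, and most of the step to E14.5 was that of Robo1 (118 to 859 CPM) and Plxna2 (172 to 799 CPM). To compare genes with each other, CPM were divided by the length of the annotated exons in kilobases (CPM per kb). On that scale the ligands summed to 333 ± 9.91, 269 ± 20.5 and 363 ± 6.29 at the successive stages. The receptors summed to 253 ± 21.6, 333 ± 3.72 and 381 ± 6.71. At E11.5 the order of ligands and receptors was thus the reverse of that in CPM.

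The order within families is given first for ephrins, Eph receptors and Slits. Efnb1 and Efnb2, membrane-spanning ephrins that also signal back into the cell bearing them, led the ephrins. Efnb1 was first at E11.5 (96.7 ± 6.64 CPM per kb), ahead of Efnb2 (69.9 ± 3.79), and the order was the reverse at E14.5 (40.2 ± 5.99 and 61.7 ± 3.94) and at E16.5 (32.4 ± 1.87 and 63.8 ± 3.52), in each case without overlap of the replicates. Epha4, a receptor for ephrins of both classes, was the most abundant Eph receptor at all stages, at 35.7 ± 4.68, 35.3 ± 2.96 and 38.0 ± 1.48 CPM per kb, clear of the next gene each time. Slit1 led the Slits throughout, with 4.90 ± 0.643, 6.87 ± 0.913 and 8.81 ± 0.280 CPM per kb.

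In plexins and neuropilins the leading gene changed with the stage. Among plexins it was Plxnb2, a receptor of class 4 semaphorins, at E11.5 (45.3 ± 2.13 CPM per kb), and Plxna2, which works with neuropilins and with class 6 semaphorins, at E14.5 (46.5 ± 1.51) and E16.5 (42.8 ± 2.04). Nrp2 was ahead of Nrp1 at E11.5 (5.58 ± 1.14 against 2.59 ± 0.186 CPM per kb) and behind it at E14.5 (2.68 ± 0.271 against 6.32 ± 0.149) and E16.5 (2.68 ± 0.530 against 8.35 ± 1.12), each time without overlap. These neuropilins are the ligand-binding partners of plexins for class 3 semaphorins.

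Netrins were led by Ntn4 at E11.5 (6.11 ± 0.695 CPM per kb) and by Ntn1 at E14.5 (9.35 ± 0.915) and E16.5 (6.54 ± 2.51), and Dcc, the receptor for attraction by netrin-1, led its group at E11.5 (19.6 ± 5.14) and E14.5 (24.8 ± 2.13). At E16.5 the replicates of Unc5d (11.8 ± 1.32) and Dcc (11.4 ± 1.22) overlapped. So did those of Robo2 (7.88 ± 1.37) and Robo1 (7.15 ± 0.655) at E11.5, after which Robo1 stood apart at 52.1 ± 2.80 and 58.0 ± 3.70. Sema6d was the most abundant semaphorin at E11.5 (19.6 ± 1.97 CPM per kb). Sema7a, a semaphorin tethered by a lipid anchor, had the highest mean at E14.5 (11.2 ± 0.829) and E16.5 (24.1 ± 1.57), where its replicates overlapped those of the next gene (Sema4c and Sema6c, respectively).

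Expression was then compared between successive stages in the 9 libraries at 0 h, by edgeR's quasi-likelihood test on all 18408 genes with sufficient counts. To be called, a gene needed an adjusted p (Benjamini-Hochberg) under 0.05 and a log2 fold change beyond 1. Of the 72 members, 64 passed the count filter and 8 did not. The E14.5 libraries serve in both comparisons.

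From E11.5 to E14.5, 14 members rose, against 8.14% of all genes tested, and 9 fell, against 8.00% of all genes tested. The 23 called are 35.9% of the 64 tested, where 16.1% of all genes were called. The median log2 fold change was 0.02 over the members and -0.01 over all genes. With no fold threshold 27 members were higher and 19 lower (25.1% and 23.5% of all genes), and by recovered reads 14 and 10 were called (7.11% and 6.60%). In the 12 h libraries the fold changes of Sema3c (0.45), Sema4d (0.75), Unc5a (0.75) and Sema3b (-0.88) were short of the fold threshold. Those that rose were 7 ligands (Sema3a, Sema3c, Sema3d, Sema4d, Sema6b, Sema7a and Ntn1) and 7 receptors (Plxna2, Nrp1, Epha5, Epha6, Robo1, Unc5a and Unc5d). Those that fell were 5 ligands (Sema3b, Sema3e, Efna5, Efnb1 and Ntn4) and 4 receptors (Epha2, Ephb3, Ephb4 and Unc5c). The largest rises and falls described below were taken, for either step, among called members with no overlap of replicates at that step. Their separation there thus follows from the choice.

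Ntn1 encodes netrin-1, which attracts axons through Dcc and repels them through Unc5 receptors (GRCm38 chr11:68209364-68400823, minus strand). It stood at 1.13, 2.12 and 3.92 CPM in replicates A, B and C at E11.5, at 53.4, 64.8 and 57.8 CPM at E14.5, and at 36.5, 28.1 and 58.6 CPM at E16.5. All E11.5 values lie below all later ones, whereas the E14.5 and E16.5 values overlap. The log2 fold change from E11.5 to E14.5 was 4.72 ± 0.37 (SE, adjusted p = 3.4e-07), the largest rise among the members, and the change from E14.5 to E16.5 was not called (-0.55 ± 0.31, adjusted p = 0.17).

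Robo1 is the main receptor for Slits on cortical neurons (chr16:72308306-73046095, plus strand). Its level was 119, 107 and 128 CPM at E11.5, 901, 868 and 809 at E14.5, then 991, 994 and 886 at E16.5. The step lay between E11.5 and E14.5 (log2 fold change 2.94 ± 0.08, adjusted p = 5.2e-11), and the later values overlap (0.15 ± 0.08, adjusted p = 0.13).

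A step of similar kind was seen in the plexin Plxna2 (chr1:194618218-194816869, plus strand), with 187, 152 and 177 CPM at E11.5, 793, 777 and 828 at E14.5, then 700, 735 and 770 at E16.5. It rose by a log2 fold change of 2.27 ± 0.08 (adjusted p = 2.5e-10) between the earlier stages, and its E16.5 values lie below the E14.5 ones without passing the test (-0.10 ± 0.08, adjusted p = 0.31). Unc5d, a receptor that netrins and FLRT proteins bind, had 14.7, 13.5 and 19.7 CPM at E11.5, 80.7, 57.5 and 76.2 at E14.5, then 108, 121 and 96.8 at E16.5. It also rose (2.20 ± 0.16, adjusted p = 1.5e-07), and its 3 sets of values do not overlap. Epha6, an Eph receptor for class A ephrins, was low throughout, with 1.21, 0.625 and 1.04 CPM at E11.5 and 4.97, 4.49 and 3.27 at E14.5 (2.08 ± 0.24, adjusted p = 1.1e-05), and an annotated antisense gene overlaps its exons.

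The largest fall was that of Sema3e, a secreted semaphorin that can signal through Plxnd1 without a neuropilin. It stood at 46.7, 42.2 and 48.1 CPM at E11.5 and at 8.64, 9.70 and 10.7 CPM at E14.5, with no overlap (log2 fold change -2.22 ± 0.23, adjusted p = 3.9e-06), and at 6.89, 5.996 and 13.5 CPM at E16.5, where it was not called (-0.09 ± 0.22). Between the 12 h libraries of E11.5 and E14.5 its fold change was -3.70. Epha2 went from 8.68, 8.46 and 9.34 CPM to 1.55, 2.94 and 1.96 (-2.05 ± 0.30, adjusted p = 8.2e-05). Ephb3, a receptor for class B ephrins, went from 62.0, 60.6 and 62.8 CPM to 18.1, 24.2 and 18.8 (-1.55 ± 0.11, adjusted p = 1.0e-07).

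Ntn4, a netrin related to laminins, fell from 21.7, 25.8 and 20.99 CPM to 7.92, 7.59 and 6.17 (-1.56 ± 0.13, adjusted p = 6.7e-07). Efna5, a lipid-anchored ephrin of topographic maps, fell from 21.2, 19.5 and 23.5 CPM to 7.88, 7.02 and 7.38 (-1.46 ± 0.10, adjusted p = 1.1e-07). The summed levels of the meningeal and mural markers and of the erythroid markers were also higher at E11.5, though single markers differed (Dcn had 2.72 CPM at E11.5 and 8.20 at E14.5). Of the 8 ephrins, 7 had a fold change below 0 in this comparison and 2 of those were called. The plot of levels by library shows these genes.

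**Figure D1:**
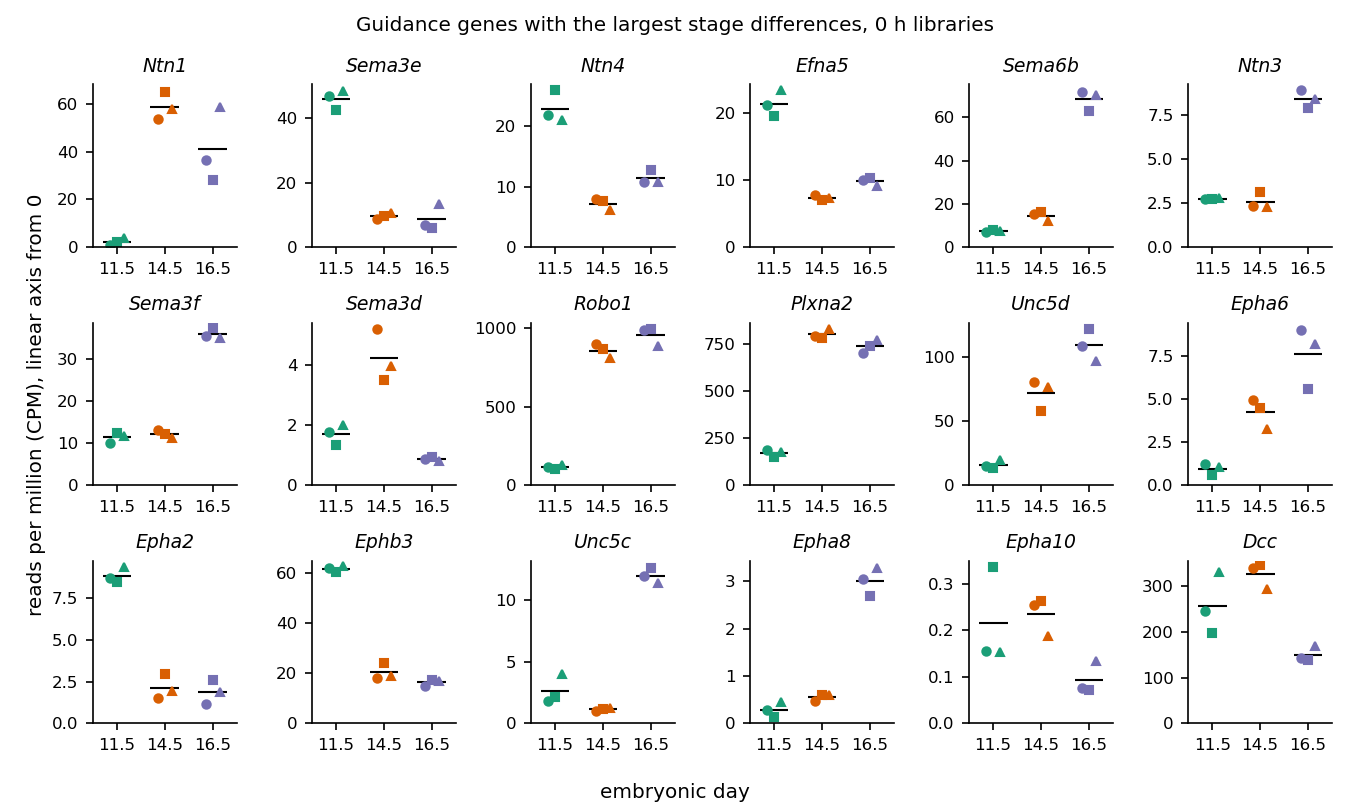
Levels in CPM (linear axis from 0) of the 18 members with the largest called differences between successive stages, by embryonic day (E11.5, E14.5, E16.5) before the chase; circles, squares and triangles are replicates A, B and C, and bars are means of 3. Robo1, Plxna2 and Ntn1 step up between E11.5 and E14.5, Sema3e, Epha2 and Ephb3 step down there, and Unc5c, Sema6b and Epha8 are highest at E16.5.

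Of the 8 members outside the test, Robo3 differed most between the stages; it was picked for description after its values were seen. It encodes a Robo receptor known from commissural axons, and it had 277, 142 and 542 reads (10.8, 6.83 and 20.8 CPM) at E11.5 and 1 read in each E14.5 library. The requirement of counts in every library removed it, and without that filter it was called as lower at E14.5 (adjusted p = 7.0e-10). The other 7 had no more than 11 reads in any 0 h library. Plxna4os1 and Plxna4os2 had 0 reads in all 9, which allows up to 0.0637 to 0.144 CPM by library (3 reads, counting error only), and Plxna4os3 had 2 reads in total.

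From E14.5 to E16.5, 12 members rose, against 7.19% of all genes tested, and 3 fell, against 5.92% of all genes tested. The 15 called are 23.4% of the 64 tested, where 13.1% of all genes were called, and the median log2 fold change was 0.34 over the members and -0.00 over all genes. Semaphorins made up 6 of those that rose (Sema3f, Sema4f, Sema4g, Sema6b, Sema6c and Sema7a), with Ntn3, Epha7, Epha8, Ephb6, Robo2 and Unc5c as the rest. Of the 8 plexins and 8 ephrins tested none was called, while with no fold threshold 3 plexins and 4 ephrins were higher and 1 ephrin lower. Efnb3 was called as higher by recovered reads and in the 12 h libraries, Plxna4 in the 12 h libraries and without replicate A of E16.5, and Efna3 without replicate A of E14.5. At an adjusted p under 0.05 alone, 33 members were higher and 11 lower, where 24.1% and 25.4% of all genes were, and by recovered reads 13 and 2 were called (6.09% and 5.19%).

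Unc5c, a netrin receptor of the repulsive response, moved down and then up. It stood at 1.84, 2.16 and 4.00 CPM at E11.5, at 1.02, 1.15 and 1.23 at E14.5, and at 11.9, 12.7 and 11.4 at E16.5, without overlap between any stages. On the log2 scale the fall was -1.17 ± 0.24 (adjusted p = 0.0014), which without replicate C of E11.5 was -0.72 and short of the fold threshold, and the rise 3.41 ± 0.26 (adjusted p = 5.1e-07). An antisense gene overlaps its exons.

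Sema6b, a membrane-spanning semaphorin that binds A-type plexins, rose at each step. Its values were 7.08, 7.98 and 7.46 CPM at E11.5, 15.3, 16.1 and 12.2 at E14.5, then 71.8, 62.8 and 70.2 at E16.5 (1.04 ± 0.10 and 2.23 ± 0.10, adjusted p = 1.7e-06 and 1.3e-08). The first of these rises sat at the fold threshold and fell short of it without replicate A of E14.5 (0.999) or B of E14.5 (0.988), and in the 12 h libraries (0.68). Sema7a was the other member called as higher at both steps (1.43 ± 0.09 and 1.10 ± 0.09).

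Sema3f, a secreted ligand of Nrp2, had 10.0, 12.5 and 11.6 CPM at E11.5, 13.2, 12.2 and 11.2 at E14.5, then 35.4, 37.2 and 34.8 at E16.5 (1.57 ± 0.11 at the second step, adjusted p = 2.6e-07). Epha8 rose from 0.467, 0.594 and 0.590 CPM to 3.04, 2.70 and 3.28 (2.53 ± 0.34, adjusted p = 5.6e-05), and by recovered reads it did not pass the count filter. Ntn3 rose from 2.36, 3.13 and 2.25 CPM to 8.87, 7.84 and 8.39 (1.70 ± 0.16, adjusted p = 2.1e-06), but its exons share sequence with Tbc1d24 on the same strand, so that its reads are uncertain. All these E16.5 values lie above all E14.5 ones, which the choice of these genes required.

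Sema3d, a secreted semaphorin, was the strongest fall at this step. It had 1.76, 1.35 and 2.00 CPM at E11.5, 5.18, 3.50 and 3.95 at E14.5, then 0.875, 0.948 and 0.801 at E16.5, so that E14.5 is above the other stages in every replicate (log2 fold change 1.36 ± 0.23, adjusted p = 3.1e-04, then -2.27 ± 0.24, adjusted p = 6.2e-06). Dcc went from 340, 346 and 295 CPM at E14.5 to 142, 139 and 169 at E16.5, with 246, 197 and 331 at E11.5. Its fall of -1.11 ± 0.15 (adjusted p = 5.1e-05) was -0.86 between the 12 h libraries, short of the fold threshold. Epha10 was called at a level near the detection limit (0.0711 to 0.134 CPM at E16.5, -1.18 ± 0.45, adjusted p = 0.044), and the call was lost with DESeq2 (adjusted p = 0.090) and when replicate A of E11.5 or any replicate of E14.5 or E16.5 was left out (adjusted p = 0.053 to 0.13).

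**Figure D2:**
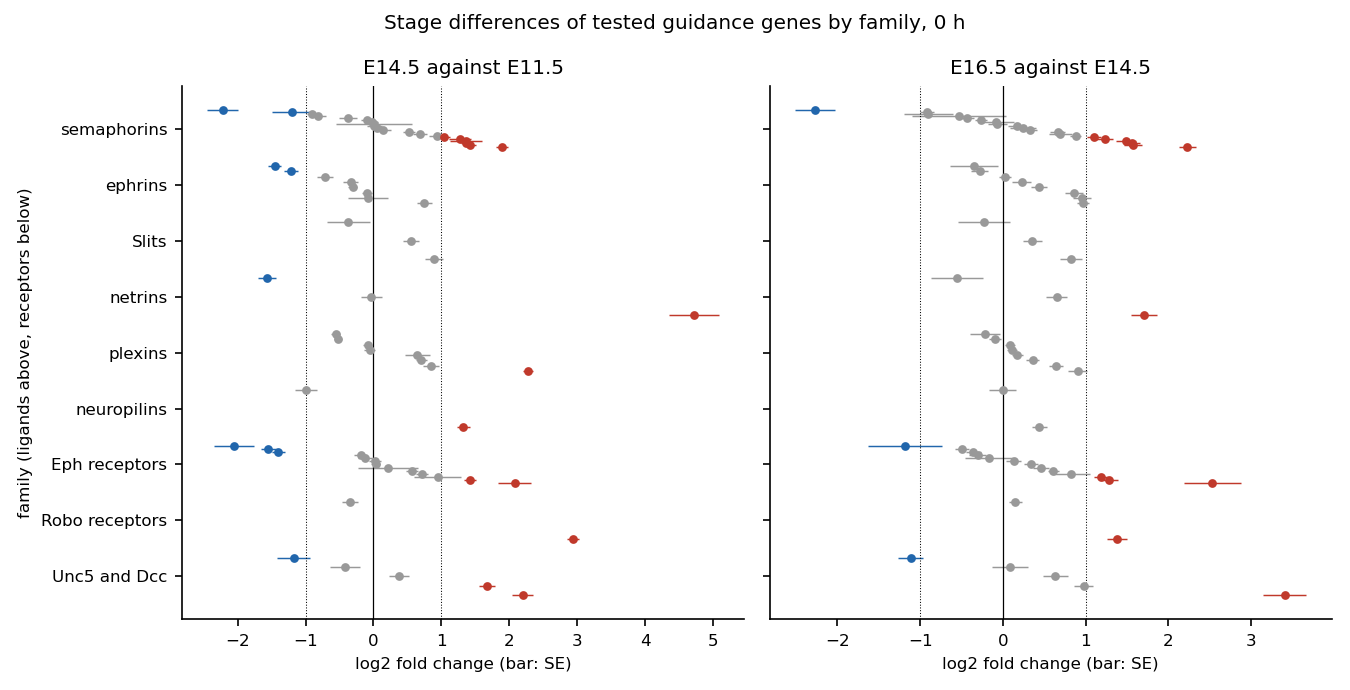
Log2 fold changes (points, with standard errors as bars) of the 64 tested members by family for both successive comparisons at 0 h; red points were called as higher, blue as lower and grey were not called, and dotted lines mark a log2 fold change of 1 in either direction. Ntn1 is the far point of the netrins on the left (4.72), and Unc5c that of the Unc5 and Dcc group on the right (3.41).

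The molecules around these ligands and receptors were read from a pair of lists. Of 46 cytoplasmic effectors, the proteins that pass receptor signals to the cytoskeleton, 45 were tested, and 7 rose and 2 fell from E11.5 to E14.5 (20.0% of those tested, where 16.1% of all genes were called). Among them Mical2, an enzyme that oxidizes actin, had a log2 fold change of 2.63 ± 0.15, and Dpysl3, a collapsin response mediator, one of 1.29 ± 0.07. From E14.5 to E16.5, 5 effectors rose and 1 fell (13.3%, against 13.1% of all genes), Mical2 again rising (1.41 ± 0.14). The median log2 fold changes were 0.23 and 0.46, against -0.01 and -0.00 over all genes.

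Of 16 co-receptors and other guidance molecules, all tested, 8 rose and 1 fell from E11.5 to E14.5 (56.2%, against 16.1% of all genes), with a median log2 fold change of 0.72. They included the adhesion molecules Chl1 (5.57 ± 0.768 CPM to 259 ± 18.5), Cntn2 (97.7 ± 17.7 to 785 ± 30.0) and L1cam (44.3 ± 2.04 to 221 ± 7.36). Cxcr4, the chemokine receptor of migrating interneurons and Cajal-Retzius cells, was the one that fell (-1.59 ± 0.09). From E14.5 to E16.5, 5 rose and 1 fell (37.5%, against 13.1% of all genes), among them Cxcr4 (1.17 ± 0.09) and its ligand Cxcl12 (2.14 ± 0.29), both higher, and Ntng1, a netrin-G anchored to the membrane, lower (-1.53 ± 0.10). The summed interneuron markers were also higher at E16.5. From E11.5 to E14.5, however, their mean sum rose from 42.6 to 112 CPM while Cxcr4 fell from 57.4 to 18.9 CPM. A link between them was not tested.

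The second question was how long guidance transcripts persist. The half-life was fitted to the loss of T-to-C conversions over the chase, relative to 0 h, and kept where all replicates of a stage passed the filters on coverage and fit. E11.5 and E14.5 each kept 47 members and E16.5 kept 56, and 45 members (21 ligands and 24 receptors) had a value throughout. No netrin was among the 45. In the same way 9505 transcripts of all genes were kept at all stages.

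The median half-life of ligand transcripts was below that of receptor transcripts at every stage. The median over ligands was 3.56 ± 0.281 h (SD of the replicate medians, n = 3) at E11.5, 3.67 ± 0.172 h at E14.5, then 2.32 ± 0.0727 h at E16.5, and over receptors it was 4.72 ± 0.348, 4.93 ± 0.266 and 3.26 ± 0.146 h. All transcripts together had medians of 4.31 ± 0.445, 4.52 ± 0.195 and 3.37 ± 0.0731 h. The difference, ligands minus receptors, was -1.16 ± 0.355 h, -1.26 ± 0.280 h and -0.938 ± 0.0865 h, and it was below 0 in all 9 replicates. With a free intercept in the fit the E14.5 value was -0.732 h. No test was made of a value over a list of genes. Of the 21 ligands, 14, 14 and 16 lay below the median of all transcripts at the successive stages, and of the 24 receptors 8, 9 and 15 did.

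By family, ephrins (median 3.50 ± 0.329 h at E11.5) and semaphorins (3.49 ± 0.166 h) had the lowest values at E11.5, and plexins (5.71 ± 0.986 h) the highest among families with over 3 members measured. The 9 Eph receptors were nearer to the ligands, with medians of 4.24 ± 0.416, 3.84 ± 0.493 and 2.53 ± 0.171 h at the successive stages, and at E14.5 semaphorins had 3.81 ± 0.155 h. For ephrins, semaphorins and plexins the E16.5 medians were 2.13 ± 0.144, 2.33 ± 0.0755 and 3.56 ± 0.207 h. Half-lives in hours at E16.5 come from a higher start of labelling, with a median conversion of 1.84% ± 0.0546 at 0 h against 1.18% ± 0.227 at E11.5, and medians of 0.199% ± 0.00596 and 0.226% ± 0.00425 were left at 12 h. The part of label intake in the shorter hours was not tested.

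**Figure D3:**
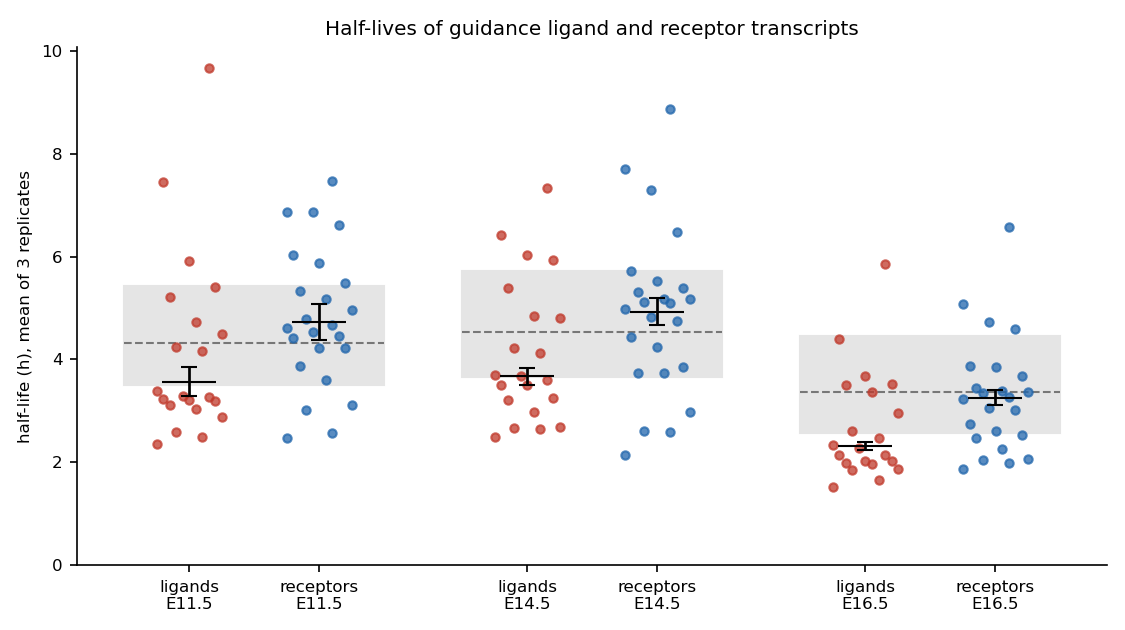
Half-life in hours (mean of 3 replicates) of each of the 21 ligand transcripts (red) and 24 receptor transcripts (blue) measured at all stages; black bars are the mean and SD of the 3 replicate medians, the dashed line is the median of all 9505 transcripts and the grey band its middle quartiles. At each stage the ligand median (3.56, 3.67 and 2.32 h) is below the receptor median (4.72, 4.93 and 3.26 h).

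Averaged over the 3 stages, label was lost fastest from Efnb2, Sema4b, Efna4, Epha4 and Ephb3. Efnb2 had 2.49, 2.89 and 2.07 h in replicates A, B and C of E11.5, then 2.71, 2.53 and 2.72 h at E14.5, then 1.62, 1.63 and 1.69 h at E16.5, within the lowest 4.25%, 6.01% and 2.50% of transcripts. Sema4b, a semaphorin of the membrane, had 2.82, 2.29 and 1.95 h, then 2.94, 2.35 and 2.72 h, then 1.90, 1.82 and 1.85 h. Epha4 had 2.65, 2.61 and 2.15 h, then 2.50, 2.46 and 2.84 h, then 2.12, 1.97 and 2.08 h. The most abundant ephrin from E14.5 on and the most abundant Eph receptor were thus both among the fastest to lose label. Efna4, a lipid-anchored ephrin, was less even at E11.5 (4.89, 2.24 and 1.99 h), and Ephb3 at E16.5 (1.71, 2.07 and 3.82 h).

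The longest half-lives on the same average were those of Plxna3, Sema4g, Plxnd1, Sema6b and Dcc. Plxna3, an A-type plexin for class 3 semaphorins, had 6.22, 7.85 and 5.77 h at E11.5, then 7.65, 8.64 and 10.3 h at E14.5, then 6.05, 6.48 and 7.20 h at E16.5. Its lowest value is above the highest of Efnb2, Sema4b and Epha4. As these genes were taken from the ends of the same ranking, a separation is built into the choice. At 4 h of chase at E16.5, 85.5% ± 7.39 of the conversion at 0 h was left in Plxna3, against 18.2% ± 1.19 in Efnb2 and a median of 37.1% ± 0.596 over all transcripts. Sema6b spread widely at E11.5 (8.35, 15.4 and 5.23 h) and was 2.44, 2.78 and 2.60 h at E16.5. These E16.5 values lie below the median of 3.37 h over all transcripts, so Sema6b was not long-lived at that stage. Plxnd1, the receptor of Sema3e, had means of 7.47 ± 1.46, 7.30 ± 1.33 and 5.09 ± 0.323 h, and Dcc of 6.87 ± 1.33, 6.47 ± 0.575 and 4.73 ± 0.466 h.

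Relative half-lives, scaled within each replicate to a mean of 0 and an SD of 1 over the 9505 transcripts, were compared between stages with limma. By the F-test over the stages, 2 members were called, both lower at E16.5 than at E11.5, and none (0) was higher, where 0.999% of all transcripts were called with lower and 2.15% with higher values. In the contrast of E16.5 with E11.5, 5 members were lower (Epha3, Ephb4, Plxna4, Plxnb2 and Sema6c) and 0 higher, against 1.71% and 2.99% of all transcripts. In that contrast 35 of the 45 members had values below 0, with a median of -0.21, whereas 4836 of all 9505 transcripts did, with a median of -0.01. At an unadjusted p under 0.05, 1 member was higher and 11 were lower in this contrast (12.2% and 9.86% of all transcripts), and likewise 1 and 11 by the F-test (12.1% and 9.51%). For E14.5 against E11.5, where 0.126% of all transcripts were called as higher and 0.0736% as lower, no member was called, with 2 higher and 4 lower at an unadjusted p under 0.05 (7.45% and 5.85% of all). For E16.5 against E14.5, with 0.684% and 0.200%, none was called either, with 0 and 8 at the unadjusted threshold (9.46% and 7.66% of all).

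The members called by the F-test were Epha3 and Ephb4. Epha3, an Eph receptor for class A ephrins (chr16:63543534-63864175, minus strand), had half-lives of 4.13, 4.71 and 3.84 h at E11.5, then 4.06, 3.28 and 4.19 h at E14.5, then 2.11, 1.89 and 1.96 h at E16.5. All E16.5 values lie below the others, and its relative half-life fell from -0.23 ± 0.07 through -0.51 ± 0.20 to -1.02 ± 0.08 (F-test, adjusted p = 0.038). Its level was 54.3 to 63.9 CPM at E11.5 and 105 to 112 CPM at E16.5, with neither step past the fold threshold.

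Ephb4, a class B receptor best known from veins (chr5:137350109-137378669, plus strand), had 4.21, 5.20 and 3.27 h at E11.5, then 2.80, 2.63 and 2.35 h at E14.5, then 1.53, 1.84 and 2.23 h at E16.5. Every E11.5 value is above every later one, and the relative half-life went from -0.27 ± 0.26 to -1.08 ± 0.11 and -1.09 ± 0.19 (adjusted p = 0.047). An antisense gene overlaps its exons. These calls were fragile. The F-test called neither gene without replicate A or B of E11.5, replicate A or C of E14.5, or any replicate of E16.5, called Epha3 alone without replicate B of E14.5, and without replicate C of E11.5 called Ephb4 and Plxna4 but not Epha3, so that no replicate could be left out with both calls kept. The contrast of E16.5 with E11.5 called 0 members without replicate B of E11.5 or any one replicate of E16.5, 1 without replicate A of E11.5 or of E14.5, 2 and 3 without replicates B and C of E14.5, and 4 without replicate C of E11.5.

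**Figure D4:**
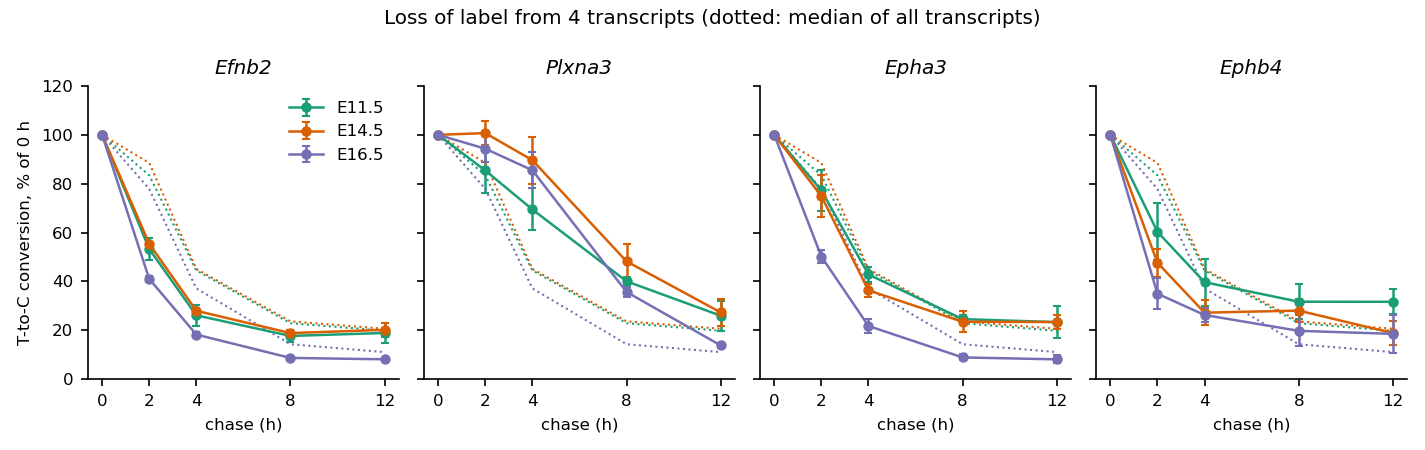
T-to-C conversion over the chase as a percentage of its value at 0 h (mean and SD of 3 replicates) for Efnb2, Plxna3, Epha3 and Ephb4 at E11.5 (green), E14.5 (orange) and E16.5 (purple), with the median of all transcripts as dotted lines. Efnb2 lies below the dotted lines at 2 and 4 h and Plxna3 above them at 4 and 8 h, and at 2 h Epha3 kept 50.2% at E16.5 against 77.3% at E11.5.

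The 45 measured members differed in build from other transcripts. In the longest coding isoform, the median coding length was 2958 bases, against 1488 over the 8686 transcripts with a half-life and an annotated 3′ UTR, and the median 3′ UTR was 1538 against 1208.5 bases long, with a GC content of 50.1% against 43.8%. Their genes spanned a median of 115 kb, against 28.5 kb. The AU-rich motif TATTTAT was found in the 3′ UTR of 25 members (55.6%), against 32.0% of all, and the Pumilio motif TGTANATA in 24 (53.3%), against 29.3%. Both were searched on the sense strand only, with overlapping matches counted, and a longer UTR gives more room for either.

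To show what such motifs look like in guidance transcripts, windows from Efnb2, Epha4, Epha3 and Plxna3 are given as examples. Each is written 5′ to 3′ in the sense of the transcript, with the motif in capitals and 8 bases on either side (GENCODE release 21, GRCm38). In order they are at chr8:8619209-8619231 (minus strand), chr8:8617960-8617983 (minus), chr1:77368150-77368172 (minus), chr16:63545501-63545523 (minus), chr16:63543932-63543955 (minus) and chrX:74343840-74343862 (plus).
Efnb2, AU-rich motif: ataggacaTATTTATaataggtg
Efnb2, Pumilio motif: gaagacgcTGTAAATAggttcaga
Epha4, AU-rich motif: ccaataaaTATTTATtgcattct
Epha3, AU-rich motif: caagtgcgTATTTATtttctttt
Epha3, Pumilio motif: cccttcccTGTACATAtgtaaaca
Plxna3, AU-rich motif: tacccaccTATTTATtaatgtaa

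Efnb2 held 2 AU-rich and 3 Pumilio motifs in a 3′ UTR of 3154 bases, and Epha4 held 4 and 1 in 3310 bases. Sema4b, Efna4 and Ephb3, also among the 5 with the shortest mean half-lives, held neither motif. Of the 5 with the longest, Plxna3 held 1 of each in 1147 bases. Dcc held 2 AU-rich motifs, Sema4g 1 AU-rich motif and Sema6b 1 Pumilio motif, while Plxnd1 held neither. Members with the AU-rich motif (25) had a median half-life of 4.38 ± 0.348 h at E11.5 and those without it (20) one of 4.42 ± 0.621 h, and at E16.5 these were 2.95 ± 0.0472 and 2.59 ± 0.214 h. Over all transcripts the medians were lower with the motif (2781 transcripts, E11.5 3.87 ± 0.437 h, E16.5 2.96 ± 0.0517 h) than without it (5905 transcripts, 4.46 ± 0.455 and 3.49 ± 0.0783 h). No test was made on these features.

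The last comparison asked whether levels stayed steady over the chase, as reading a half-life from the label alone assumes. Between 0 and 12 h, 1 of 67 members tested was higher at E11.5 and 0 lower, against 1.32% and 2.36% of all genes tested. At E14.5, 1 of 64 was higher and 1 lower, against 0.676% and 1.31%. At E16.5, 0 of 63 were called in either direction by edgeR, against 0.625% and 2.00%. At E16.5 DESeq2 called 1 as higher. With no fold threshold, 26 members were higher and 3 lower at E11.5 (10.3% and 8.18% of all genes), 11 and 6 at E14.5 (6.29% and 5.63%), and 14 and 10 at E16.5 (13.1% and 11.4%). Wells of the same letter came from the same pool, and with the pool as a block 2 members were lower at E14.5 (Sema3e and Sema3g) and 1 higher at E16.5 (Plxnb3), where 1.98% and 0.843% of all genes were. Sema3g and Plxnb3 were both under 0.5 CPM at those stages.

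At E11.5 Unc5c went from 1.84, 2.16 and 4.00 CPM at 0 h to 4.18, 4.96 and 6.10 CPM at 12 h, higher in 3 of 3 pools (log2 fold change 1.19 ± 0.28, adjusted p = 0.015). The call was lost without replicate A or B of 0 h or replicate C of 12 h (adjusted p = 0.051 to 0.058). At E14.5 Sema3d went from 5.18, 3.50 and 3.95 CPM to 13.4, 8.61 and 8.15 (1.22 ± 0.22, adjusted p = 0.0058), and without replicate A of 12 h it was 0.98, short of the fold threshold. Sema3e went from 8.64, 9.70 and 10.7 CPM to 3.02, 4.90 and 4.33 (-1.19 ± 0.17, adjusted p = 0.0020).

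None of these 3 genes had overlapping values at 0 and 12 h at those stages. At E11.5 the pools of Sema3e did not all move one way (mean log2 ratio of 12 h to 0 h 0.08 ± 0.19), and its difference from E14.5 in this respect was not tested. Unc5c and Sema3d had no half-life measured at all stages, and Sema3e had 3.49, 4.46 and 8.21 h at E14.5. Smaller changes over the chase passed the adjusted p alone in other members whose half-lives are given above, among them Plxna3, Plxnd1 and Ephb4, higher at 12 h at E11.5 and at E16.5, and Epha3, lower at both.

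**Figure D5:**
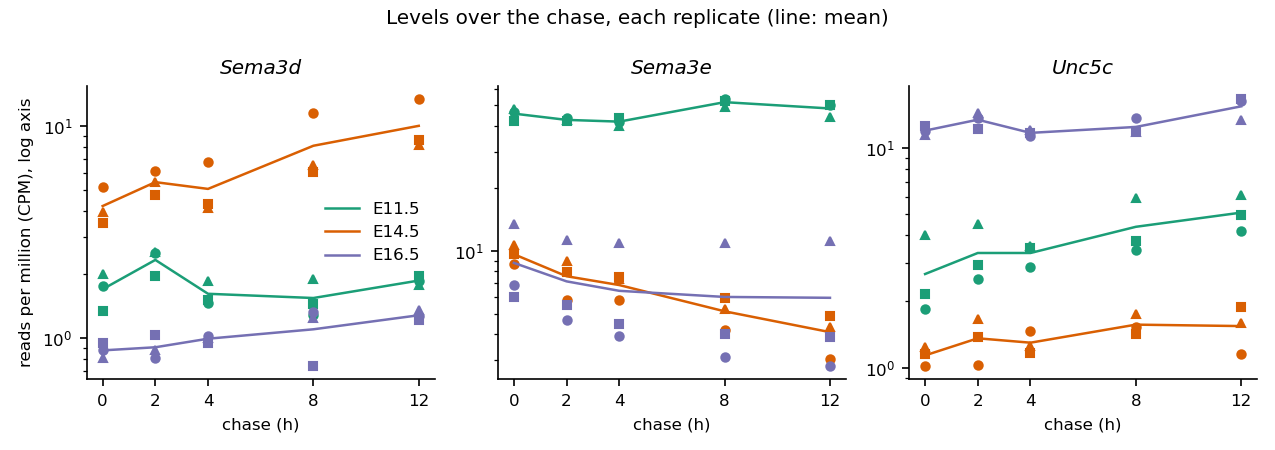
CPM (log axis) of Sema3d, Sema3e and Unc5c over the chase at each stage; circles, squares and triangles are replicates A, B and C, and lines are means of 3. At E14.5 Sema3d is higher at 12 h (8.15 to 13.4) than at 0 h (3.50 to 5.18) and Sema3e is lower (3.02 to 4.90, against 8.64 to 10.7).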

How the data were processed

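Reads were aligned by the authors with SlamDunk to mm10 and summed over GENCODE exons, and 9 tables, 1 per stage and replicate, were deposited. Covered T positions were deposited as raw counts, conversion rates as a fraction of covered Ts, and expression as CPM, whose values were whole multiples of 1 read (100% within 0.01 reads), so that reads were recovered. The deposited half-life and R2 columns, scores from the authors' own fits, served only to check the refit (99.996% of 109733 within 1%). The deposited mean coverage, a signal averaged by the authors over chase times, was not used. Whether counting used strand, and how multiply aligned reads were treated, is not given in the sources used here; 19 members share exon sequence with another gene, 4 of them on the same strand.

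Expression was tested on covered-T counts with edgeR 4.0.16 (TMM, quasi-likelihood F-test, more than 10 counts in all libraries compared). A read thus counts once per T it spans, and results with recovered reads are given among the alternatives. DESeq2 1.42.0 was an alternative. Half-lives, ln(2)/k, were refitted to exp(-kx) on rates relative to 0 h, and kept with over 500 covered Ts at all times, 0 to 24 h and R2 above 0.6 in the 3 replicates. They were compared with limma 3.58.1 in R 4.3.3. Scripts were tested on simulated data. Replicates differed by more than sampling noise in all 45 pairs (chi-square per degree of freedom at least 2.15).

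Libraries of the same letter within a stage come from wells of one pool, and their deviations at 0 and 12 h correlated with r = 0.15 to 0.52. Letters do not pair the stages. Annotation, coordinates and UTRs come from GENCODE release 21 on GRCm38, matched by symbol (96.4% of all symbols, all 72 members). Members, gene lists and tests were chosen with earlier results of these data known. Named members were the 5 largest called rises and falls per step without overlap of replicates, the 5 longest and 5 shortest half-lives, those called by the F-test or between 0 and 12 h, and the most abundant of each family; Robo3 and those called only in the contrast of E16.5 with E11.5 or under an alternative were added after values were seen.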

Additional observations from a re-analysis of the deposited data

How the results depend on the processing

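Counts of members called at 0 h moved little with DESeq2, RLE size factors, no count filter or recovered reads (14 higher in each and 9 to 10 lower for E14.5 against E11.5, 12 to 13 higher and 2 to 3 lower for E16.5 against E14.5). With no fold threshold they were 27 higher and 19 lower at the first step and 33 and 11 at the second. Against the fold threshold itself (glmTreat), 11 and 6, then 9 and 1, were called, and in the 12 h libraries 10 and 9, then 14 and 1. Leaving out each library gave 13 to 16 higher and 8 to 10 lower, then 12 to 14 and 2 to 3. With the letter as a replicate block, which pairs nothing between stages, 15 and 9, then 12 and 2, were called.

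Half-life calls changed more. The F-test, with 2 members lower, gave 4 with R2 above 0.8, 4 with a free intercept, 1 with background subtracted, 20 in hours without scaling, and 0 with the replicate block, and 0 to 2 on leaving out each replicate. E16.5 against E11.5, with 5 lower, gave 14 in hours without scaling, 1 with the replicate block, and 0 to 4 on leaving out each replicate. The shares of all transcripts called under these alternatives are not given here, so the counts are not a result about the members. In hours the median over all transcripts was itself lower at E16.5 (3.37 h) than at E11.5 (4.31 h). No alternative called a member as higher in either test. The cause was not tested.

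The ligand minus receptor difference was -0.732 h at E14.5 with a free intercept. At E16.5 it was -1.14 h with coverage over 2000, -1.23 h with R2 above 0.8, -0.812 h with a free intercept and -0.812 h with background subtracted. Leaving out each replicate gave -1.30 to -0.959 h at E11.5, -1.42 to -1.18 h at E14.5 and -0.986 to -0.901 h at E16.5. It stayed below 0 in every alternative run.

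Between 0 and 12 h, with no fold threshold, 26 members were higher and 3 lower at E11.5, 11 and 6 at E14.5, and 14 and 10 at E16.5. The replicate block gave 2 lower at E14.5 and 1 higher at E16.5, as did DESeq2 for the latter. Leaving out each library gave 0 to 3 higher and 0 to 1 lower at E11.5, 0 to 1 and 1 to 2 at E14.5, and 0 to 1 and 0 to 1 at E16.5; without 0 h replicate C at E11.5, Plxnc1 and Unc5d joined. Over 449 values of 28 pairs of a named member and a comparison under alternatives, 372 kept their call, 77 lost it and 0 reversed. Most of the lost calls were half-life calls. The pairs were chosen because they were called, and the alternatives reuse most of the same libraries. The pooled count is therefore no separate support for the calls. Genes that failed the filter of an alternative were not counted there. The setting with no fold threshold, which is among the alternatives, keeps every expression call by construction.

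Only 3 replicates stood behind each stage. No unlabelled library was used here, so background conversion was only estimated.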
